A study of Mus musculus with 26 samples.

Results

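The uncoupling protein genes Ucp1, Ucp2 and Ucp3 were read from gene counts of brown adipose tissue (BAT). They were chosen by name, and all 3 members of the 50686 genes listed were found and passed the filter on low counts, which left 17286 genes. The tissue, labelled supraclavicular, came from 26 male C57BL/6J mice aged 12 to 16 weeks. All mice had been kept singly at thermoneutrality, 30 °C by the labels and 29 °C in the study's methods, for 14 to 18 days. The WT group at 30 °C held 7 control littermates, and the Afadin KO group at 30 °C held 7 mice in which Adiponectin-Cre was combined with floxed Mllt4, the gene for Afadin. The WT group at 5 °C held 5 mice and the Afadin KO group at 5 °C held 7 mice, all moved to the cold for 6 h after thermoneutrality. Adiponectin-Cre is active in adipocytes of white as well as brown fat, and the other cells of the tissue keep the floxed gene intact. Levels are given as CPM, the normalized counts after TMM scaling of the libraries, and levels of different genes are compared only as RPKM, the same values divided by the length of the merged exons in kb. In whole tissue, fewer cells of a type and less RNA per cell cannot be told apart.

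UCP1 is the inner-membrane carrier that lets protons back into the mitochondrial matrix of brown adipocytes, so that fuel is burned for heat instead of ATP. It is opened by fatty acids and its gene is induced through noradrenaline, β-adrenergic receptors, cAMP and PKA. UCP2 and UCP3 belong to the same carrier family but are not established sources of cold-induced heat. UCP2 is found in many tissues and is abundant in macrophages and other leukocytes, and UCP3 is known mainly from skeletal muscle and brown fat, where its gene responds to fatty acids through PPARs.

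Total counts per mouse ran from 12705969 to 25732258, and the mitochondrial genome took between 14.3% and 40.5% of them. The lowest share was that of WT mouse 7 at 30 °C. Afdn (the current symbol of Mllt4) was at 196 ± 21.0 CPM (SD, n = 7) in WT mice and 195 ± 27.4 CPM (SD, n = 7) in Afadin KO mice at 30 °C, and at 73.5 ± 4.27 CPM (SD, n = 5) and 58.5 ± 4.15 CPM (SD, n = 7) at 5 °C. At 30 °C the targeted gene was therefore not lower in the libraries labelled Afadin KO (log2 fold change -0.01, adjusted p = 0.992 in edgeR's test). The 5 °C value was -0.33 (adjusted p = 0.116 in edgeR's test), and all 7 mice labelled Afadin KO, at up to 65.3 CPM, were below all 5 WT mice, at 67.9 CPM or more. The names WT and Afadin KO below stand for the labels alone. Summed marker levels were read to check the tissue. That of 10 adipocyte markers, led by Fabp4 and Cd36, ran from 9759 to 11484 CPM at 30 °C and from 14750 to 18592 CPM at 5 °C. That of 15 brown adipocyte markers, led over all mice by Dio2 and Cidea, ran from 2464 to 3545 CPM at 30 °C and from 5308 to 8147 CPM at 5 °C. The 8 white adipocyte markers tested, led by Lep, summed to 331 to 595 CPM at 30 °C and to 137 to 268 CPM at 5 °C. None of these sums overlapped between the temperatures. Endothelial markers summed to 637 to 1156 CPM and fibroblast markers to 1158 to 3613 CPM, the highest being WT mouse 7. That of the 7 slow and cardiac muscle markers tested spanned 0.558 to 527 CPM. The summed level of 20 skeletal muscle markers, led by Myh4 and Acta1, spanned 38.9 to 11726 CPM. In 4 libraries it was above 5 times the median over all mice: WT mouse 7 at 30 °C (8361 CPM), WT mouse 16 at 5 °C (7577 CPM), and Afadin KO mice 24 (5761 CPM) and 25 (11726 CPM) at 5 °C. Results that turn on these libraries are given with and without them.

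Ucp1 (ENSMUSG00000031710.4) lies at chr8:83290352-83298452 on the plus strand of mm10. Ucp3 (ENSMUSG00000032942.14) at chr7:100472990-100486432 and Ucp2 (ENSMUSG00000033685.13) at chr7:100493337-100502020 are neighbours on the plus strand of chromosome 7, with 6904 bp between the end of Ucp3 and the start of Ucp2. The coding lengths are nearly equal, at 921, 927 and 924 bp for Ucp1, Ucp2 and Ucp3, whereas the merged exons add up to 1636, 6989 and 3135 bp. No stretch of 100 bases, the length of a read, is shared between transcripts of different members, and the longest identical stretch is 24 bases, between Ucp2 and Ucp3. Reads of 1 member are thus not expected to be counted for another. The end of Ucp2 shares 305 bp of exon with Dnajb13 on the opposite strand, and the antisense gene Gm10603 overlaps the span of Ucp3 by 1857 bp but shares none of its exons. The setting for strand in the counting is not given in the sources used here. Dnajb13 was at 2.81 to 6.28 CPM on average in the 4 groups, a small level beside that of Ucp2.

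The 250 bases before each RefSeq start (GRCm38.p6, the assembly of mm10) are shown because the members differed in their response to cold, and because Ucp2 and Ucp3 are neighbours whose start regions differ. Capitals mark matches, on either strand, to a list of short motifs: the TATA box core TATAAA and its variant TATATA, the cAMP response element TGACGTCA and its half-site TGACG, the nuclear receptor half-site AGGTCA, the GC box GGGCGG and the CCAAT box CCAAT. They are the Ucp1 window at chr8:83290098-83290347, the Ucp2 window at chr7:100493108-100493357 and the Ucp3 window at chr7:100472741-100472990, all on the plus strand.
Ucp1: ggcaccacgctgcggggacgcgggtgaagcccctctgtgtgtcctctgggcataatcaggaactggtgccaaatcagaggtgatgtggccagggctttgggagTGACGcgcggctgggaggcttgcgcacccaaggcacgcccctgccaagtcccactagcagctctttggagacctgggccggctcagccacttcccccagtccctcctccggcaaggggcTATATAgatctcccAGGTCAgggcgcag
Ucp2: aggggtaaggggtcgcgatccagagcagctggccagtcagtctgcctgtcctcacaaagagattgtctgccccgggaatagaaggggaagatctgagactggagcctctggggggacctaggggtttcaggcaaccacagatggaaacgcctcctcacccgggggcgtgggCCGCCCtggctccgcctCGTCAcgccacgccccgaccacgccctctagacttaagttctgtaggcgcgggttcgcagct
Ucp3: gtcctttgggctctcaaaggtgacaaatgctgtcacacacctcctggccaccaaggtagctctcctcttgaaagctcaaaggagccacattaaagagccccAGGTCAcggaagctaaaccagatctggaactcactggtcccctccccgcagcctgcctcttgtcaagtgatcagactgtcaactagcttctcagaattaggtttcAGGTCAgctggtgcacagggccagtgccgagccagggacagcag

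The Ucp1 window held a TATATA from 28 to 23 bases before the start, found in 5.25% of 32851 promoter windows of the same length. It also held 1 TGACG, present in 17.8% of the windows, and 1 AGGTCA, present in 14.0%. The Ucp3 window held AGGTCA at 2 places, from 149 to 144 and from 44 to 39 bases before the start, and no match to the other motifs. The Ucp2 window had neither of these: it held 1 GC box on the minus strand, as did 32.7% of windows on either strand, and 1 TGACG on the minus strand. None of the 3 windows held TATAAA, TGACGTCA or CCAAT, which were found in 12.4%, 1.55% and 33.8% of windows. CpG sites numbered 12, 16 and 3 in the Ucp1, Ucp2 and Ucp3 windows. A match describes letters and is not a site, and the known enhancers of Ucp1 lie further upstream than these windows.

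**Figure D1:**
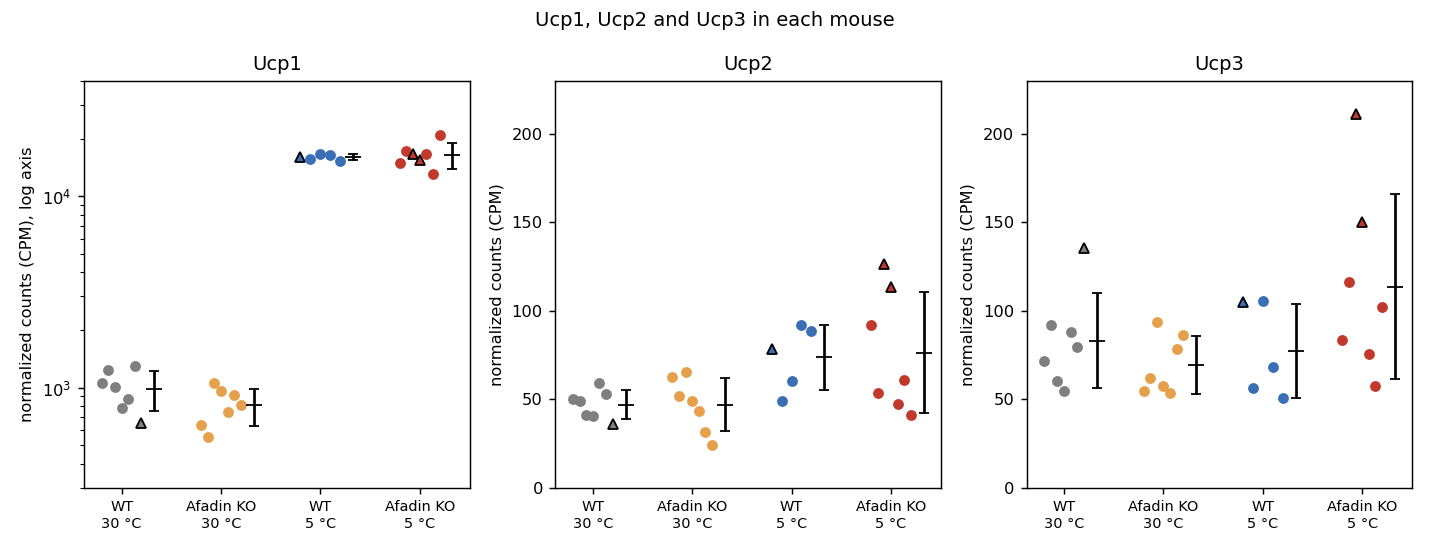
Normalized counts (CPM) of Ucp1 (log axis), Ucp2 and Ucp3 (linear axes) in each mouse of the 4 groups. Points are mice, triangles with a black edge are the 4 libraries with the most skeletal muscle marker reads, and bars are the mean ± SD. Ucp1 separates the temperatures in all mice, whereas Ucp2 and Ucp3 overlap between all groups and their highest values at 5 °C, 127 and 211 CPM, come from the same marked library.

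At 30 °C, Ucp1 was already among the most abundant nuclear-encoded messages of the tissue. In WT mice it had 652 CPM at the lowest, 1004 at the median and 1292 at the highest, and in Afadin KO mice 551, 813 and 1052 CPM. Per kb it was ranked among the 13649 protein-coding genes tested, with those of the mitochondrial genome left out. Its mean of 602 ± 143 RPKM (SD, n = 7) in WT mice ranked 25. Its mean of 495 ± 109 RPKM (SD, n = 7) in Afadin KO mice ranked 28. At 5 °C the WT mice had 15960, 15617, 16658, 16450 and 15340 CPM, and the Afadin KO mice 13014 at the lowest, 16651 at the median and 20990 at the highest. Every mouse at 5 °C was above every mouse at 30 °C, with no overlap. Ucp1 then ranked 1 per kb among the same 13649 genes in both genotypes.

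On the log2 scale Ucp1 rose by 4.02 in the cold in WT mice (SE 0.16, edgeR adjusted p = 5.85e-17) and by 4.34 in Afadin KO mice (SE 0.16, edgeR adjusted p = 6.70e-18). These are rises of 16.2-fold (95% interval 12.9 to 20.5) and 20.3-fold (16.1 to 25.5), tested by quasi-likelihood with p adjusted over all genes by Benjamini-Hochberg. Cold called 65.0% of all genes tested in WT mice and 68.6% in Afadin KO mice, so that a call alone does not set a gene apart here. Tested alone, the difference in mean log2 CPM had p = 0.00126 in WT mice, the smallest that 5 mice against 7 allow, and p = 0.000583 in Afadin KO mice, the smallest for 7 against 7 (exact two-sided permutation tests, adjusted p = 0.00947 and 0.00874 over 15 tests).

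Ucp2 was the least abundant of the 3 per kb. WT mice at 30 °C had 36.1 CPM at the lowest, 49.1 at the median and 59.1 at the highest, and Afadin KO mice 24.3, 49.3 and 65.5 CPM. At 5 °C the WT mice had 78.6, 48.8, 60.3, 92.2 and 88.4 CPM, of which 4 of 5 were above all WT mice at 30 °C. The Afadin KO mice at 5 °C had 41.1 CPM at the lowest, 61.0 at the median and 127 at the highest. Only 3 of 7 of these, mice 22, 24 and 25 at 91.9, 127 and 114 CPM, were above all Afadin KO mice at 30 °C, and the other 4 lay inside the range at 30 °C.

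Ucp2 rose in both genotypes in edgeR's quasi-likelihood test, by 0.65 on the log2 scale in WT mice (SE 0.25, adjusted p = 0.0273) and by 0.70 in Afadin KO mice (SE 0.24, adjusted p = 0.0104), 1.57-fold and 1.63-fold. Tested alone, neither response passed after adjustment over 15 tests (adjusted p = 0.0631 and 0.184, exact permutation tests). Without the 4 libraries high in muscle markers, the log2 fold change was 0.56 in WT mice (adjusted p = 0.0441 in edgeR's test) and 0.32 in Afadin KO mice (adjusted p = 0.201). The call in WT mice was also lost when WT mouse 7 at 30 °C (0.57) or WT mouse 16 (0.63), 19 (0.56) or 21 (0.58) at 5 °C was left out, with adjusted p of 0.0502 to 0.0782. It was kept in the other 22 of the 26 fits without 1 mouse.

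Ucp3 lay between the other members per kb. WT mice at 30 °C had 54.9 CPM at the lowest, 79.5 at the median and 136 at the highest, and Afadin KO mice 53.8, 62.0 and 93.8 CPM. At 5 °C the WT mice had 105, 56.6, 106, 68.2 and 50.6 CPM, all inside the range at 30 °C but for the lowest. The Afadin KO mice at 5 °C had 57.3 CPM at the lowest, 102 at the median and 211 at the highest, and 4 of 7 were above all Afadin KO mice at 30 °C.

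In WT mice the cold response of Ucp3 was -0.11 on the log2 scale (SE 0.27, adjusted p = 0.739 in edgeR's quasi-likelihood test), with a 95% interval from -0.65 to 0.44, or 0.635-fold to 1.36-fold. In Afadin KO mice Ucp3 rose by 0.71 (SE 0.24, adjusted p = 0.0119), 1.64-fold with an interval of 1.16 to 2.31. Tested alone, that rise had p = 0.0390 (exact permutation test), adjusted p = 0.146 over 15 tests. The difference of the responses, Afadin KO minus WT, was 0.82 (SE 0.36, adjusted p = 0.262 in edgeR's test), so that a response of Ucp3 that differs between the labels was not shown. The rise in Afadin KO mice was 0.48 without mouse 24 (adjusted p = 0.0603) and 0.32 without the 4 libraries high in muscle markers (adjusted p = 0.149).

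Scaling bears on these small changes. With library size alone in place of the TMM factors, the cold responses in Afadin KO mice were 0.34 for Ucp2 (adjusted p = 0.154) and 0.35 for Ucp3 (adjusted p = 0.191), while the median over all genes moved from -0.03 to -0.34. Relative to the median gene, the response of Ucp2 was 0.73 with TMM factors and 0.68 with library size alone, and that of Ucp3 0.74 and 0.70. In WT mice the median moved from -0.01 to -0.14 and Ucp2 relative to it from 0.67 to 0.69. Among all genes called in Afadin KO mice, 5825 were higher and 6035 lower with TMM factors, 3223 and 8384 with library size alone, and 4694 and 7369 with upper-quartile factors. The TMM factors of Afadin KO mice 24 and 25 were the lowest of the 26 mice, at 0.769 and 0.759, and that of WT mouse 7 was the highest, at 1.29. The response of Ucp1 was 4.05 with library size alone in Afadin KO mice and passed the threshold under each of 13 other settings in both genotypes.

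**Figure D2:**
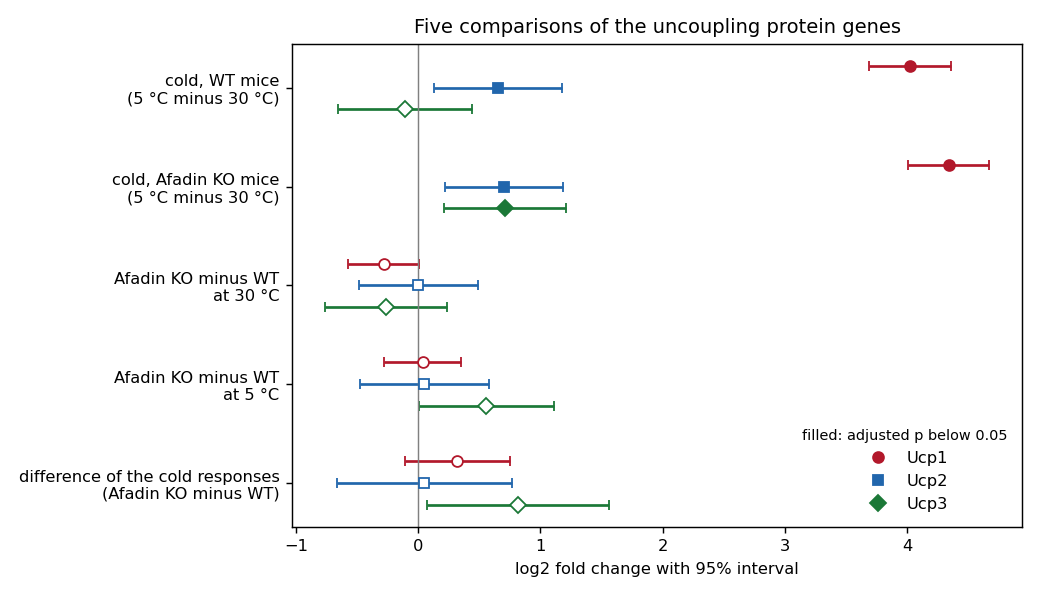
Log2 fold changes of Ucp1, Ucp2 and Ucp3 in 5 comparisons, with 95% intervals from edgeR's quasi-likelihood fit to all 26 mice. Filled symbols have an adjusted p below 0.05. The responses of Ucp1 to cold sit at 4.02 and 4.34 and those of Ucp2 at 0.65 and 0.70, and no symbol is filled in the 3 comparisons that involve the label.

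Between the labels, none of the 3 members passed in edgeR's quasi-likelihood test at either temperature, and DESeq2 called none. Such calls were rare among all genes, at 0.0810% at 30 °C, 0.139% at 5 °C and 1.16% for the difference of the cold responses. At an unadjusted p below 0.05 in the edgeR fit to all mice there were 0 members at 30 °C, 1 (Ucp3) at 5 °C and 1 (Ucp3) for the difference of the responses. In that fit 1322, 2323 and 2804 of all 17286 genes had such a p, in the same order. Ucp1 had a log2 fold change of -0.28 at 30 °C (SE 0.14, adjusted p = 0.653), with a 95% interval from -0.57 to 0.01. It was -0.13 with library size alone, and its unadjusted p was 0.0443 in DESeq2 and 0.0176 in edgeR without the 4 libraries high in muscle markers (-0.36). In that comparison 6 of 7 Afadin KO mice were below the WT mean and 2 of 7 were below all WT mice. At 5 °C the value of Ucp1 was 0.04 (SE 0.15, adjusted p = 0.951), with an interval from -0.28 to 0.35, or 0.825-fold to 1.28-fold. Ucp2 had 0.00 at 30 °C (interval -0.48 to 0.49) and 0.05 at 5 °C (-0.47 to 0.58). Ucp3 had -0.26 at 30 °C (interval -0.76 to 0.24) and 0.56 at 5 °C (0.00498 to 1.11, adjusted p = 0.366 in edgeR's test). Without the 4 libraries high in muscle markers these values of Ucp3 were -0.10 and 0.31, and the unadjusted p at 5 °C was 0.184 in edgeR's fit. Leaving out 1 mouse moved them as far as -0.08 at 30 °C (without WT mouse 7) and 0.34 at 5 °C (without Afadin KO mouse 24). The intervals of the label differences thus reach up to 0.58 for Ucp2 and 1.11 for Ucp3 on the log2 scale. The difference of the cold responses was 0.32 for Ucp1 (SE 0.21, adjusted p = 0.470) and 0.05 for Ucp2 (SE 0.35, adjusted p = 0.967).

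Counting error was small, at most 0.959% of the count for Ucp1, 4.54% for Ucp2 and 3.51% for Ucp3, well below the spread between mice. The highest mouse of a group had 1.98 and 1.91 times the Ucp1 of the lowest in WT and Afadin KO mice at 30 °C, 1.09 times in WT mice at 5 °C and 1.61 times in Afadin KO mice at 5 °C. For Ucp2 these ratios were 1.64, 2.70, 1.89 and 3.08 in the same order of groups, and for Ucp3 2.47, 1.74, 2.09 and 3.69. The widest range of Ucp2 and Ucp3 was that of the Afadin KO mice at 5 °C, but not without the 4 libraries high in muscle markers. The ratio for Ucp2 was then 2.24 there and 2.70 in Afadin KO mice at 30 °C, and for Ucp3 2.03 there and 2.09 in WT mice at 5 °C. In the test of spread, the mean deviation of log2 CPM from the group median, no difference between the labels passed. For Ucp1 at 5 °C it was 0.04 in WT mice and 0.15 in Afadin KO mice (exact permutation test, p = 0.162, adjusted p = 0.530 over 6 tests). Afadin KO mice 28 and 27 gave the highest and lowest Ucp1 at 5 °C, 20990 and 13014 CPM, and neither is among the 4 libraries high in muscle markers.

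Ratios within a mouse do not depend on the scaling. Per kb of merged exon, Ucp1 exceeded Ucp3 by 27.3-fold at the median of WT mice at 30 °C (lowest 9.19, highest 31.9) and by 22.3-fold in Afadin KO mice (17.0 to 31.9). At 5 °C the ratio was 462 in WT mice (291 to 581) and 342 in Afadin KO mice (151 to 435). The mean log2 ratio rose by 4.18 in WT mice and by 3.74 in Afadin KO mice, with adjusted p = 0.00379 and 0.00350 over 12 exact permutation tests. Ucp1 to Ucp2 rose by 3.43 and 3.71 with the same adjusted p. The ratio of Ucp3 to Ucp2 was 3.32 at the median of WT mice at 30 °C and 2.59 at 5 °C, a change of -0.75 on the log2 scale that did not pass after adjustment (exact permutation p = 0.0417, adjusted p = 0.1000). It was -0.94 without WT mouse 18 at 5 °C and then passed (adjusted p = 0.00727, exact permutation test), and between -0.53 and that value when any 1 mouse was left out. In Afadin KO mice that ratio was 2.76 at 30 °C and 3.58 at 5 °C at the median, a change of -0.03 in the mean log2 ratio. No ratio differed between the labels past the threshold (lowest adjusted p = 0.284, exact permutation tests). The length used changes the size of the ratio of Ucp3 to Ucp2, but Ucp3 stayed above Ucp2 at each group median. Per kb of coding sequence, the ratio was 1.49 at the median of WT mice at 30 °C and 1.17 at 5 °C. In Afadin KO mice these medians were 1.24 and 1.61. Single WT mice ran from 0.574 to 3.78, so that the order was not the same in every mouse.

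**Figure D3:**
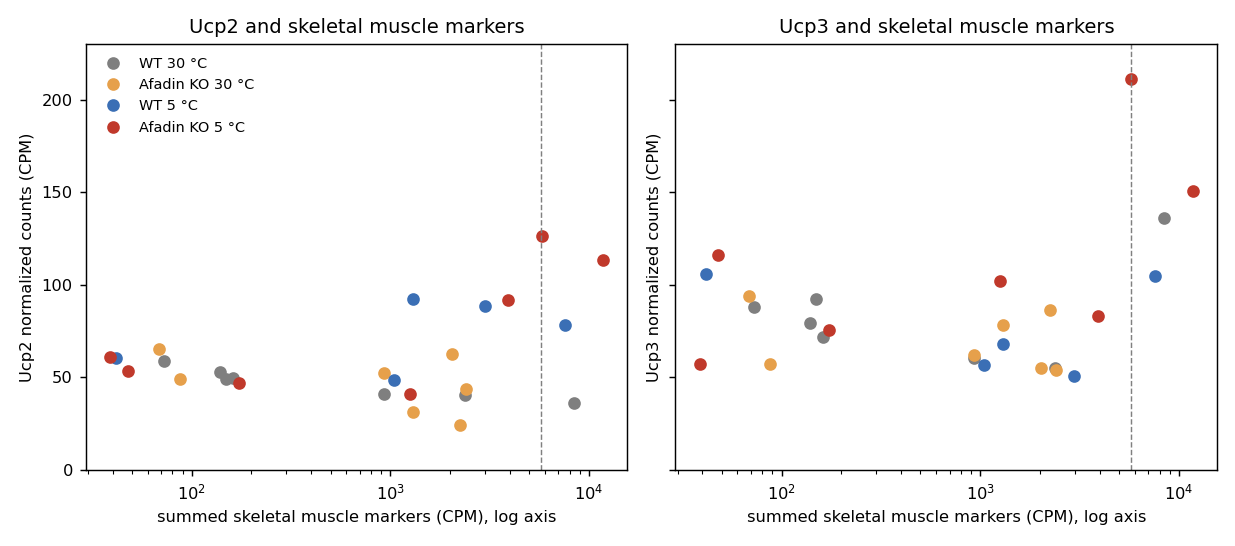
Ucp2 (left) and Ucp3 (right) in CPM against the summed CPM of 20 skeletal muscle markers (log axis) in each of the 26 mice, coloured by group. The dashed line is 5 times the median sum, 5726 CPM. The 4 libraries to its right, of which Afadin KO mouse 24 lies just past it at 5761 CPM, have 105 to 211 CPM of Ucp3, and the highest Ucp3 to its left, 116 CPM, is in a library with a muscle sum of 47.9 CPM.

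Because skeletal muscle also expresses Ucp3, its level was set against the muscle markers in each library. WT mouse 7 had the highest Ucp3 of its group, 136 CPM against 54.9 to 92.2 CPM in the other 6. WT mouse 16 had 105 CPM at 5 °C, beside 106 CPM in WT mouse 18, whose muscle marker sum was 41.6 CPM, the lowest of the WT mice. Afadin KO mice 24 and 25 had 211 and 150 CPM, the highest and the next of their group, whose other mice reached 116 CPM. The 4 libraries with the most muscle reads were thus all first or second in Ucp3 within their group. The order did not continue below them. The muscle sum of Afadin KO mouse 23 at 5 °C was 47.9 CPM with 116 CPM of Ucp3, and that of Afadin KO mouse 10 at 30 °C was 68.6 CPM with 93.8 CPM, the highest of its group. Over all 26 mice, Ucp3 and the muscle sum were compared as log2 values, by deviations from the group mean. These gave a Pearson r of 0.22 (permutation p = 0.363) and a Spearman rho of 0.17 (permutation p = 0.446). Within groups r was 0.16 in WT mice at 30 °C, -0.27 in Afadin KO mice at 30 °C and 0.65 in Afadin KO mice at 5 °C. A relation on the CPM scale was not tested. Without WT mouse 18 and Afadin KO mouse 27 at 5 °C, whose log2 sums lay farthest from the median deviation, r was 0.22. Both had low sums, 41.6 and 38.9 CPM, so that the 4 libraries high in muscle markers stayed in. With the mean log2 CPM of the muscle markers as a covariate, the cold responses of Ucp2 (0.67, adjusted p = 0.0131) and Ucp3 (0.68, adjusted p = 0.0134) passed in Afadin KO mice in edgeR's test. Without the 4 libraries, neither Ucp2 (0.32, adjusted p = 0.201) nor Ucp3 (0.32, adjusted p = 0.149) passed there in edgeR's test. In 3 of these libraries the mitochondrial share also stood at an end of its group: 14.3% in WT mouse 7, and 37.4% and 39.3% in Afadin KO mice 24 and 25. The part of muscle tissue, of mitochondrial share and of scaling in these Ucp3 values was not tested.

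Without the 4 libraries, Ucp3 averaged 74.4 ± 14.9 CPM (SD, n = 6) in WT mice at 30 °C, 69.6 ± 16.4 CPM (SD, n = 7) in Afadin KO mice at 30 °C, 70.3 ± 24.8 CPM (SD, n = 4) in WT mice at 5 °C and 87.0 ± 22.9 CPM (SD, n = 5) in Afadin KO mice at 5 °C. These means use the factors of the full set. The difference of the cold responses was then 0.41 (adjusted p = 0.510 in edgeR's test). The response of Ucp1 was 3.93 in WT mice and 4.35 in Afadin KO mice, both past the threshold, and its difference between the labels at 30 °C was -0.36 (adjusted p = 0.296).

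Ucp2 was set against the leukocyte markers for a like reason. The summed level of 20 macrophage and leukocyte markers, led by Mrc1 and Lyz2, ran from 319 to 578 CPM over all mice. Deviations of its log2 had an r of 0.04 with those of log2 Ucp2 (permutation p = 0.848). In the cold 6 of these 20 markers rose and 6 fell in WT mice, and 11 rose and 3 fell in Afadin KO mice, at a median of -0.01 and 0.33 on the log2 scale. With the mean of these markers as a covariate, the cold response in Afadin KO mice was 0.73 for Ucp2 (adjusted p = 0.0294) and 1.08 for Ucp3 (adjusted p = 0.00136) in edgeR's test. Against the muscle markers, a relation added after the data had been seen, Ucp2 had an r of 0.14 over all mice (permutation p = 0.542), made up of -0.97 in WT mice at 30 °C, -0.49 in Afadin KO mice at 30 °C and 0.71 in Afadin KO mice at 5 °C. In WT mice at 30 °C, Ucp2 was thus lowest in the libraries with the most muscle reads, and in Afadin KO mice at 5 °C it was highest in them. Neutrophil markers were low but uneven, up to 74.1 CPM in Afadin KO mouse 27 at 5 °C, where Ucp2 was 61.0 CPM. Lymphocyte markers were highest in Afadin KO mouse 23, at 25.2 CPM, where Ucp2 was 53.7 CPM.

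Of the 9 relations planned, 1 passed after adjustment: Ucp3 and Afdn deviated in opposite directions (Pearson r = -0.51, permutation p = 0.00422, adjusted p = 0.0380). Spearman's rho was -0.50 (permutation p = 0.00752, adjusted p = 0.0677). Within groups r was -0.78 in WT mice at 30 °C and -0.87 in Afadin KO mice at 30 °C, but 0.07 in Afadin KO mice at 5 °C. It was -0.38 without the 2 mice farthest from the median deviation of log2 Afdn, WT mouse 7 and Afadin KO mouse 14 (permutation p = 0.0632). The relation thus rests in part on them. With library size alone as the scaling, r was -0.32 (adjusted p = 0.529, permutation test). No relation between members passed after adjustment: r was -0.05 for Ucp1 and Ucp2, 0.16 for Ucp1 and Ucp3, and 0.20 for the neighbours Ucp2 and Ucp3, with adjusted permutation p of 0.620 to 0.875. Without the 2 mice farthest from the median deviation of log2 Ucp3, Afadin KO mouse 24 and WT mouse 7, r of Ucp1 and Ucp3 was 0.42 (permutation p = 0.0259, unadjusted). Within groups the sign varied: r of Ucp1 and Ucp3 was -0.29 in WT mice at 30 °C, 0.57 in Afadin KO mice at 30 °C and 0.37 in Afadin KO mice at 5 °C. For Ucp1 and Ucp2 it was 0.61, -0.13 and -0.42 in the same order, and for Ucp2 and Ucp3 -0.07, -0.34 and 0.62. Ucp1 and the muscle markers had r = -0.39 (permutation p = 0.0477, adjusted p = 0.215), with -0.76 in WT mice at 30 °C, -0.63 in Afadin KO mice at 30 °C and 0.17 in Afadin KO mice at 5 °C. Without the 2 mice farthest from the median deviation of the log2 muscle sum, WT mouse 18 and Afadin KO mouse 27, it was -0.55 (permutation p = 0.00869, unadjusted). These 2 had the lowest muscle sums of their groups, and the 4 libraries high in muscle markers stayed in. The median muscle sum at 30 °C was 162 CPM in WT mice and 1297 CPM in Afadin KO mice. With the mean log2 CPM of the muscle markers as a covariate, the label difference of Ucp1 at 30 °C was -0.26 (adjusted p = 0.645 in edgeR's test).

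The genes next to the members were read in the same fit. Both neighbours of Ucp1 rose in the cold. Tbc1d9, 17417 bp upstream, rose by 1.92 in WT mice (SE 0.13) and by 1.97 in Afadin KO mice (SE 0.12) on the log2 scale, and Elmod2, 14179 bp downstream, by 1.05 (SE 0.14) and 1.19 (SE 0.13), with adjusted p of at most 3.16e-07 in edgeR's test. On chromosome 7, Gm10603, the antisense gene that reaches into Ucp3, rose by 0.95 and 1.13 from 5.51 and 6.02 CPM (adjusted p = 6.15e-05 and 1.59e-06). C2cd3 on the other side of Ucp3 had 0.03 and 0.02, and Coa4 beyond Ucp2 had 0.22 and 0.17, neither past the threshold. Dnajb13, which overlaps Ucp2, had 0.89 and 0.83 and lay just outside the threshold in each genotype. None of these neighbours passed between the labels (lowest adjusted p = 0.470 for Gm10603 at 5 °C).

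Genes whose log2 CPM followed a member most closely over the 26 mice were picked by Pearson's r among 9597 genes, as a description. For Ucp1 they were Tmed5, a cargo protein of the early secretory pathway (r = 0.994), Lamtor3 (0.994), the glycerol kinase Gk (0.993), the calcium pump gene Atp2a2 (0.993) and the adenylyl cyclase Adcy3 (0.993). Each of these separates the temperatures as Ucp1 does. For Ucp2 they were the secreted chemokine Cxcl14 (0.782), the cholesterol ester hydrolase Nceh1 (0.769), Rin3 (0.765), Heg1 (0.760) and Fkbp1a (0.754). For Ucp3 they were the chromatin remodeller Chd3 (0.759), the lipid droplet coat gene Plin1 (0.756), Uhrf1bp1 (0.753), Aldh1l1 (0.748) and Lrrc20 (0.730). By deviations from the group means, the closest were Idh3a of the citric acid cycle (0.755), Tmed5 (0.755) and Srr (0.754) for Ucp1, Rccd1 (0.803), Nceh1 (0.774) and Hddc3 (0.773) for Ucp2, and Sil1 (0.846), the peroxisomal membrane gene Pxmp4 (0.840) and Plin1 (0.813) for Ucp3. All these values share the libraries' scaling factors. With library size alone, the 10 r over all mice for Ucp2 and Ucp3 lay between 0.599 and 0.718. Among the 9597 genes, Ucp3 ranked 4715 and Ucp2 ranked 4058 in likeness to Ucp1.

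**Figure D4:**
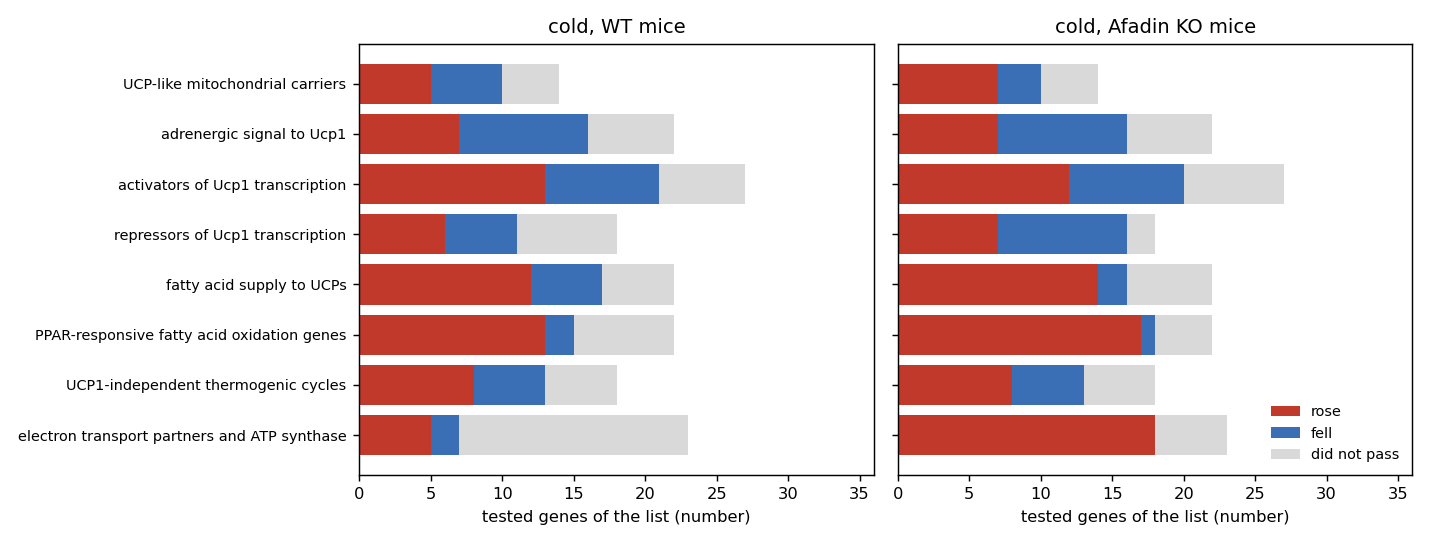
Number of tested genes in 8 lists around the uncoupling proteins that rose (red), fell (blue) or did not pass the threshold (grey) in the cold, in WT (left) and Afadin KO mice (right). Lists of fatty acid supply and oxidation are mostly red on both sides. The adrenergic list holds 7 genes that rose and 9 that fell in each genotype, of 22 tested. Over all genes tested, 31.6% rose and 33.4% fell in WT mice, and 33.7% rose and 34.9% fell in Afadin KO mice.

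The genes around the uncoupling proteins were grouped into 8 lists, to be read against all genes tested, of which 31.6% rose and 33.4% fell in WT mice and 33.7% rose and 34.9% fell in Afadin KO mice. The lists name 164 genes tested. The noradrenaline pathway that induces Ucp1 had calls in each direction not far from the shares over all genes. Of 22 genes tested, 7 rose and 9 fell in WT mice and likewise in Afadin KO mice. Adcy3 rose by 3.31 on the log2 scale in WT mice and by 3.19 in Afadin KO mice, whereas another adenylyl cyclase, Adcy9, fell by 2.02 in WT mice and fell by 1.76 in Afadin KO mice, and Map2k6, a kinase upstream of p38, fell by 3.52 and fell by 3.32. The SE of the named genes in these lists ran from 0.07 to 0.56, and where a rise or fall is stated the adjusted p in edgeR's test was at most 0.00450.

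Among 27 tested activators of Ucp1 transcription, 13 rose and 8 fell in WT mice, and 12 rose and 8 fell in Afadin KO mice. With library size alone, 10 rose and 14 fell in Afadin KO mice. Dio2, which makes the active thyroid hormone inside the brown adipocyte, rose by 7.00 in WT mice (SE 0.56) and by 6.63 in Afadin KO mice (SE 0.54), from 24.6 and 29.9 CPM. The coactivator Ppargc1a rose by 4.07 and 3.95, about as much as Ucp1. Cebpa, an adipocyte transcription factor, fell by 2.33 in WT mice and fell by 1.86 in Afadin KO mice. It was the only gene of the 8 lists called for a difference of the cold responses in edgeR's test, at 0.47 (SE 0.12, adjusted p = 0.0428). Over the 26 fits without 1 mouse the value ran from 0.42 to 0.51, and the call was lost in 19 of them (adjusted p up to 0.0958) and likewise with library size alone (0.28, adjusted p = 0.422), with every gene of at least 1 count (0.46, adjusted p = 0.102) and with the leukocyte covariate (0.42, adjusted p = 0.0699). Of 18 repressors tested, 6 rose and 5 fell in WT mice and 7 rose and 9 fell in Afadin KO mice. Foxo1 rose by 1.79 and 1.67 and Atf3 by 1.68 and 2.90, and Rbl1, a relative of the retinoblastoma protein, fell by 1.91 and fell by 2.03.

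Fatty acids both open UCP1 and feed its respiration. In the list of fatty acid supply, 12 of 22 genes rose and 5 fell in WT mice, and 14 rose and 2 fell in Afadin KO mice. Lipoprotein lipase (Lpl) rose by 2.05 and 1.94, the acyl-CoA synthetase Acsl1 by 2.02 and 2.18, and the fatty acid transporter Slc27a2 by 2.08 and 2.30. PPAR-responsive genes of fatty acid oxidation, the class to which Ucp3 belongs in muscle, rose in the larger part: 13 of 22 rose and 2 fell in WT mice, and 17 rose and 1 fell in Afadin KO mice, with a median log2 fold change of 0.49 and 0.63 beside -0.01 and -0.03 over all genes. With library size alone, 13 of the 22 rose and 2 fell in Afadin KO mice, and in the list of fatty acid supply 10 rose and 5 fell. Fgf21 of the PPAR-responsive list, which encodes a secreted hormone and not an oxidation enzyme, rose by 5.18 and 5.52. Acot1 rose by 4.44 and 5.33 and Cyp4a10 by 4.14 and 5.05. All of these rose from under 0.4 CPM. Acot1 and Cyp4a10 have close paralogs, so their counts are uncertain. Beside these, the response of Ucp3 was -0.11 in WT mice and 0.71 in Afadin KO mice.

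Carriers of the same family as the UCPs formed another list, with calls in WT mice near the shares over all genes. Of 14 tested, 5 rose and 5 fell in WT mice, and 7 rose and 3 fell in Afadin KO mice (4 rose and 5 fell with library size alone, and 5 fell without WT mouse 7). The citrate carrier Slc25a1 fell by 1.60 in WT mice (adjusted p = 4.56e-05) and had -0.54 in Afadin KO mice (adjusted p = 0.0731), and the difference of the responses was 1.06 (adjusted p = 0.174 in edgeR's test). The dicarboxylate carrier Slc25a10 fell by 1.42 in WT mice (adjusted p = 0.00450) and had -0.58 in Afadin KO mice (adjusted p = 0.171 in edgeR's test). Without WT mouse 7 it was -0.67 in WT mice (adjusted p = 0.0206) and -0.60 in Afadin KO mice (adjusted p = 0.0160), both past the threshold in edgeR's test. Without the 4 libraries high in muscle markers it was -0.56 (adjusted p = 0.0727) and -0.57 (adjusted p = 0.0400 in edgeR's test). The difference of the responses was 0.84 in all mice, 0.07 without WT mouse 7 and -0.02 without the 4 libraries, past the threshold in none of these fits. Slc25a27, also called UCP4, fell by 1.41 and fell by 1.48. In the list of electron transport partners and ATP synthase, 5 of 23 genes rose and 2 fell in WT mice at a median of 0.11, and 18 rose and 0 fell in Afadin KO mice at a median of 0.26. With library size alone, 2 rose and 3 fell in Afadin KO mice, so this count moves with the scaling. Without the 4 libraries high in muscle markers, 2 rose and 2 fell in WT mice. Leaving out 1 mouse moved the number that rose in WT mice to 3 without WT mouse 3 or 7 at 30 °C or 16 or 17 at 5 °C, to 8 without WT mouse 1 or Afadin KO mouse 28 and to 9 without WT mouse 2, and the number that fell to 1 without WT mouse 1, 2, 5, 18, 19 or 21. For a difference of the responses, edgeR called 0 of the 23 in all mice and 1 without those 4 libraries, and DESeq2 called 2. Cycs, cytochrome c, rose by 0.93 and 1.24 and Etfdh by 1.21 and 1.23. Atpif1, the inhibitor of ATP synthase, fell by 0.55 in WT mice and had -0.19 in Afadin KO mice (adjusted p = 0.0685 in edgeR's test). Genes of heat-producing cycles that do not need UCP1 numbered 18 tested, of which 8 rose and 5 fell in each genotype. Ckm, Atp2a1 and Ryr1 of this list are also in the skeletal muscle list. The median was 0.55 in WT mice and 1.06 in Afadin KO mice, and -0.10 in Afadin KO mice without the 4 libraries high in muscle markers. Gk rose by 6.06 and 5.82 and Atp2a2 by 1.98 and 2.00, and Dgat2, which makes triglyceride, fell by 3.07 and fell by 2.80.

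Between the labels, edgeR called 0 of the 164 list genes at 30 °C and 0 at 5 °C. An unadjusted p below 0.05 in edgeR's test was found for 19 of them at each temperature. Among all 17286 genes tested it was found for 1322 at 30 °C and 2323 at 5 °C. DESeq2 called 0 of the list genes at 30 °C and 1 at 5 °C, beside 48 and 197 of all genes. For the difference of the cold responses, edgeR called 1 and 31 had an unadjusted p below 0.05, beside 200 and 2804 of all genes. DESeq2 called 5 list genes, beside 488 of all genes.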

How the data were processed

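Total RNA from brown adipose tissue of 26 mice was depleted of ribosomal RNA and sequenced by the authors as 100-bp single-end reads. Per the study's methods and the submitters' processing notes, STAR 2.5.2b placed the reads on mm10 and featureCounts 1.5.2 counted them over the genes of GENCODE M13. The deposited values are raw read counts, and the strand setting of the counting is not given in the sources used here. Of the 50686 genes listed, 50376 were given a symbol from GENCODE M21. No column of values was left unused (0 columns).

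Genes were filtered by edgeR's filterByExpr by group, scaled by TMM and fitted over all 4 groups with the legacy quasi-likelihood test of edgeR 4.0.16 (R 4.3.3). P was adjusted by Benjamini-Hochberg over the 17286 genes tested, with a threshold of 0.05. The SE is the log2 fold change over the root of F, and intervals are at 95%. Log2 CPM used a prior count of 2. Single values were compared by exact two-sided permutation tests of mean log2 CPM, and relations across mice by 100000 permutations within groups (scipy 1.17.1, numpy 2.4.6, pandas 2.3.3, matplotlib 3.10.9). Relations used log2 CPM of genes and the log2 of marker sums, as deviations from the group means. The 2 farthest mice lay farthest from the median deviation of the variable named second. The alternatives used other scalings, filters, covariates and samples, and DESeq2 1.42.0. P-values measure the spread between mice of 1 experiment. Counting errors cover counting alone.

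Tested on simulated data with 200 of 16893 genes changed by 1 on the log2 scale between the labels at 5 °C, edgeR found 149 with 6 other genes and DESeq2 found 152 with 13. With no gene changed among 16955, they called 0 and 2.

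The members, marker lists and gene lists were chosen with earlier results of these data known. Besides the members, the text names genes next to them or overlapping them, the 5 genes most alike to each over all mice and the 3 most alike by deviations (mean of at least 5 CPM), and from each pathway list the 3 with the largest called cold response in WT mice (mean of at least 1 CPM) and any called by label or by the difference of responses. Relations of Ucp2 to muscle markers were added after the data had been seen. RefSeq windows of GRCm38.p6 gave the promoter sequences, which matched all 3 members. Protein sequences were not used here.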

Additional observations from a re-analysis of the deposited data

How the results depend on the processing

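No paired analysis was possible because the groups share no replicate numbers. The cold response of Ucp1 stayed past the threshold in both genotypes under each alternative, between 3.92 and 4.07 in WT mice and between 4.05 and 4.59 in Afadin KO mice on the log2 scale, and the values between the labels of all 3 members stayed outside it. For each change given here the cause was not tested, except that leaving out mice also leaves fewer samples. With library size alone as the scaling, the cold calls of Ucp2 (0.34) and Ucp3 (0.35) in Afadin KO mice were lost. With upper-quartile factors that of Ucp2 in WT mice (0.55, adjusted p = 0.0602 in edgeR's test) was lost. Without the libraries high in muscle markers those of Ucp2 (0.32) and Ucp3 (0.32) in Afadin KO mice were lost. Library size alone also turned the sign of values near 0: the label difference at 5 °C of Ucp1 (-0.00325) and of Ucp2 (-0.062), the difference of the responses of Ucp2 (-0.21), and, tested alone, Ucp1 at 5 °C (-0.030), Ucp2 at 30 °C (0.10) and the difference for Ucp2 (-0.18). Other signs of Ucp2 that turned were the difference of the responses with upper-quartile factors (-0.013), the label difference at 30 °C with the muscle covariate (-0.00737) or the leukocyte covariate (-0.00358), and, without the libraries high in muscle markers, the label differences at 30 °C (-0.054) and 5 °C (-0.30) and the difference of the responses (-0.24). The relation of Ucp3 and Afdn lost its call with library size alone (r = -0.32) and without the 2 farthest mice (r = -0.38). Leaving out the 2 farthest mice turned r to 0.080 for Ucp1 and Ucp2, to -0.29 for Ucp1 and Afdn and to -0.10 for Ucp2 and leukocyte markers.

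Over the fits without 1 mouse, the cold response ran from 0.56 to 0.77 for Ucp2 in WT mice, from 0.48 to 0.83 for Ucp3 in Afadin KO mice and from -0.25 to 0.036 for Ucp3 in WT mice. The label difference of Ucp1 at 5 °C ran from -0.031 to 0.087, and Ucp2 ran from -0.094 to 0.14 at 30 °C, from -0.12 to 0.16 at 5 °C and from -0.12 to 0.16 for the difference of the responses. Tested alone, the ranges were -0.036 to 0.079 for Ucp1 at 5 °C, 0.54 to 0.77 for the cold response of Ucp2 in WT mice, -0.15 to 0.093, -0.17 to 0.10 and -0.12 to 0.15 for Ucp2 at 30 °C, at 5 °C and for the difference, -0.25 to 0.018 for the cold response of Ucp3 in WT mice and 0.45 to 0.77 in Afadin KO mice. The difference in spread ran from -0.066 to 0.042 for Ucp1 at 30 °C, from -0.10 to 0.032 for Ucp3 at 30 °C and from -0.010 to 0.17 for Ucp3 at 5 °C. Log2 ratios ran from -0.14 to 0.19 for the label at 5 °C in Ucp1 to Ucp2, from -0.26 to 0.035 for the label at 30 °C in Ucp1 to Ucp3, and, in Ucp3 to Ucp2, from -0.94 to -0.53 for cold in WT mice, from -0.16 to 0.17 for cold in Afadin KO mice and from -0.38 to 0.0075 for the label at 30 °C.

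Counts of called genes in the cold stayed within 1.5 times. Between the labels at 30 °C edgeR called 14 genes, but 34 with library size alone, 9 with every gene of at least 1 count, 102 without the libraries high in muscle markers and 7 to 93 without 1 mouse, and DESeq2 called 48. At 5 °C it called 24, but 5 with library size alone, 15 with every gene, 45 with at least 10 counts in every mouse, 9 with only the groups compared, 60 with the leukocyte covariate and 7 to 100 without 1 mouse, and DESeq2 called 197. The difference of the responses called 200, but 27 with every gene, 386 with the leukocyte covariate and 49 to 371 without 1 mouse, and DESeq2 called 488.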
